A study of Mus musculus with 2 samples.

Results

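The Mirg cluster is the run of microRNA genes at the far end of the imprinted Dlk1-Dio3 region of mouse chromosome 12. Its members were taken by symbol and position: all genes on the plus strand whose GENCODE M21 symbol starts with Mir and which lie between 109709060 and 109747960 (mm10). This gave 38 genes of the 2202 microRNA genes in the count tables, from Mir379 (109709060 to 109709125) to Mir410 (109743715 to 109743795), with Mir3072 (109747878 to 109747960) beyond Mir410. The rule itself uses symbol, strand and position and no measured value. RNA came from the left cerebral cortex of female B6CASTF1/J mice aged 10 days, first-generation hybrids of C57BL/6J and CAST/EiJ, and microRNA libraries were made from 2 of them. The labels name no allele, treatment or second group, so the libraries are replicates of 1 group, called animal 1 and animal 2 here by their replicate numbers. The labels number the females differently but give both the same donor entry.

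MicroRNAs are cut as short hairpins from longer transcripts, and each hairpin can yield a mature microRNA from its 5′ arm and another from its 3′ arm. Bases 2 to 8 of a mature microRNA, the seed, do most of the pairing with the messenger RNAs it represses. In the Dlk1-Dio3 region the noncoding RNAs Meg3, Rian and Mirg and the microRNAs come from the chromosome inherited from the mother, while the protein-coding genes Dlk1, Rtl1 and Dio3 come mainly from the father's. The cluster is specific to placental mammals, is strongly expressed in brain and is thought to be transcribed as one long unit that responds to neuronal activity. The deposited counts hold no allele information, so the parental origin of the reads was not measured.

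The mature sequences of the 8 most abundant members are shown first, since these members held most of the cluster's reads; capitals mark the seed. They are RefSeq sequences (GRCm38.p6, plus strand, 5′ to 3′), and only the arms that the sequence table lists are printed.
miR-487b-5p: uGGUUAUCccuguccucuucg
miR-382-5p: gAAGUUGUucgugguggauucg
miR-382-3p: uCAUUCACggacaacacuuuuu
miR-541-5p: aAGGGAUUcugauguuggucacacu
miR-541-3p: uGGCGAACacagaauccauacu
miR-411-5p: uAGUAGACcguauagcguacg
miR-411-3p: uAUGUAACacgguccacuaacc
miR-379-5p: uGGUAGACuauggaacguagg
miR-379-3p: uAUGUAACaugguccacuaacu
miR-409-5p: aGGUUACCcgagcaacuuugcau
miR-409-3p: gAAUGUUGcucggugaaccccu
miR-323-5p: aGGUGGUCcguggcgcguucgc
miR-323-3p: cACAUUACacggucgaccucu
miR-376a-5p: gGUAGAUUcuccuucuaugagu
miR-376a-3p: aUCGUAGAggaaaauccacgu

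The hairpin of the most abundant member is shown whole, with its only listed mature part, miR-487b-5p, in capitals. Counts sum both arms, so the arm that its reads came from was not measured. The hairpin has 82 bases and lies at chr12:109727333-109727414, plus strand, between annotated genes.
Mir487b: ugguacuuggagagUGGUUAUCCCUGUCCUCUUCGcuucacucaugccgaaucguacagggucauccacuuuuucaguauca

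All 38 members were matched in the sequence table, with 71 mature sequences of 19 to 25 bases that carry 65 different seeds. Among these listed sequences, 6 seeds stood on 2 members each, and 11 members took part. The sequence table lists 2 arms for 33 members and 1 arm for 5, so seeds of unlisted arms were not compared. The mature sequences that share a seed, beside those of Mir379 and Mir411 above, are printed here because such microRNAs can pair with the same target sites.
miR-1193-5p: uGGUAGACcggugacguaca
miR-1197-5p: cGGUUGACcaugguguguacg
miR-758-5p: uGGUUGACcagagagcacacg
miR-494-5p: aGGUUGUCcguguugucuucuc
miR-410-5p: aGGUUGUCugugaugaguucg
miR-453: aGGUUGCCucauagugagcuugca
miR-496a-5p: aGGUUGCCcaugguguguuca
miR-376b-5p: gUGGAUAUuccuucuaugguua
miR-376c-5p: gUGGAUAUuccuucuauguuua

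The hairpins resemble one another in ways the choice of members did not use. The letters GGUU started at base 2 or 3 in 11 of the 71 mature sequences (15.5%), against 15 of the 1667 other mouse mature sequences in the table (0.9%). GGUUGAC, which contains GGUU, stood in the mature sequences of Mir134, Mir154, Mir380, Mir758 and Mir1197, and GUUGCCC in those of Mir377, Mir381, Mir495, Mir496a and Mir543. GGUCCAC stood in those of Mir379, Mir380, Mir411, Mir412 and Mir758. Each of these 3 motifs was found in 5 cluster sequences (7.04%) and in 0 of the 1667 others. The motifs were chosen after the sequences were read and were searched 5′ to 3′ in the mature strand only, so the shares are a description. Closest to each other among the listed sequences were miR-376c-5p and miR-376b-5p, which differ by U19G, counted from 1 at the 5′ end of miR-376c-5p. The 3′ arms of Mir300 and Mir381 share a run of 16 bases.
miR-300-3p: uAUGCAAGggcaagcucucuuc
miR-381-3p: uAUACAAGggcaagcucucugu
From the first to the second the substitutions are G4A, U21G and C22U, and the first of these falls in the seed.

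Libraries held 3806078 and 2602935 reads counted to microRNA genes on the gene's own strand in animals 1 and 2. A further 42.7% and 40.4% of all reads mapped to several positions and were counted to no gene. Members with near-identical arms, such as the 5′ arms of Mir376b and Mir376c, therefore have uncertain levels. Of the markers checked for the tissue, 10 of 10 neuronal microRNA genes had reads in both animals, some of them few. They summed to 36856 and 38268 CPM (counts scaled to 1000000 counted reads per library), mostly from Mir128-1, Mir128-2, Mir137 and Mir132. The Mir124a copies stood at 3.42 CPM or less each, with Mir124a-2 at 7 and 1 reads and Mir124a-3 at 4 and 2. Genes with several copies, such as Mir124a, Mir9 and Mir133a, can lose reads that map to several positions. Low values of such copies therefore do not show that their microRNA was scarce. Sums for other cells were 1187 and 1640 CPM for oligodendrocytes, 3145 and 4524 for smooth muscle and pericytes, 1593 and 1941 for blood and microglia, 78.0 and 46.5 for red blood cells and 865 and 751 for choroid plexus. Of these lists the endothelial one had the largest ratio between animals, at 28913 and 8265 CPM, all from Mir126a, with Mir126b at 0. The liver marker stood at 42.6 and 41.9 CPM, and of 4 skeletal muscle genes only Mir206 had reads. In such bulk tissue, fewer cells of a type and less RNA per cell cannot be told apart.

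The cluster held 10.1% of all counted reads in each animal: 384380 reads in animal 1 (10.10%, exact Clopper-Pearson 95% interval 10.07 to 10.13) and 263071 in animal 2 (10.11%, 10.07 to 10.14). The mean was 10.103% ± 0.0054 (SD, n = 2), so the animals differed by less than the counting error. Of the 38 members 35 were detected, meaning 10 CPM or more in both animals, against 13.9% of all microRNA genes in the tables. At 100 CPM or more in both animals stood 27 members, against 8.99% of all genes, and at 1000 CPM or more 12 members, against 4.18%. Mir654 and Mir453 had 0 reads in both animals, which allows up to 0.788 CPM in animal 1 and 1.15 CPM in animal 2. Mir1197, with 21 and 5 reads (5.52 and 1.92 CPM), was the only other member below the detection level. Over all members the median of the mean level was 502 CPM, against 0 over all genes of the tables, of which 1432 had no read.

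Within the region the cluster, with 38 of its 59 plus-strand microRNA genes, held the largest part of the reads. It took 45.8% of the reads of these genes, which run from Meg3 to Dio3, in animal 1 and 45.2% in animal 2. The 6 genes opposite Rtl1, whose microRNAs are complementary to that messenger RNA, took 31.2% and 29.8%, with 5 of 6 detected. The other 15 genes took 23.1% and 25.0%, with 11 detected. Mir127 and Mir433, opposite Rtl1, and Mir770, in Meg3, led the genes outside the cluster. Mir127 took 4.52% of counted reads in animal 1 and 4.36% in animal 2, and Mir770 3.68% and 4.19%. Both stood above the highest member of the cluster, Mir487b, at 3.41% and 4.13%. Mir433 took 1.71% and 1.75%, close to the second member, Mir382, at 1.39% and 1.78%.

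Mir487b alone supplied 33.8% of the cluster's reads in animal 1 and 40.9% in animal 2. It had 129788 reads (34100 CPM) in animal 1 and 107545 (41317 CPM) in animal 2. Without it the cluster's share of counted reads was 6.69% in animal 1 and 5.97% in animal 2, a log2 ratio of 0.16 between the animals that turned to -0.04 after TMM scaling, a correction for library composition. The whole cluster, at near-equal shares, stood at -0.20 after that scaling. Mir382 came next in both animals, with 52914 and 46205 reads (13903 and 17751 CPM).

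Below these, 3 members lay close together. Mir541 had 26134 and 16606 reads (6866 and 6380 CPM), Mir411 had 23440 and 15592 (6159 and 5990 CPM), and Mir379, the first hairpin of the cluster, had 20942 and 14366 (5502 and 5519 CPM). Their order was the same in both animals, and the 5 highest members together held 65.9% and 76.1% of the cluster's reads. These levels count reads per hairpin. Divided by hairpin length, the same 5 members led, but Mir541 fell from the third place to the fifth.

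**Figure D1:**
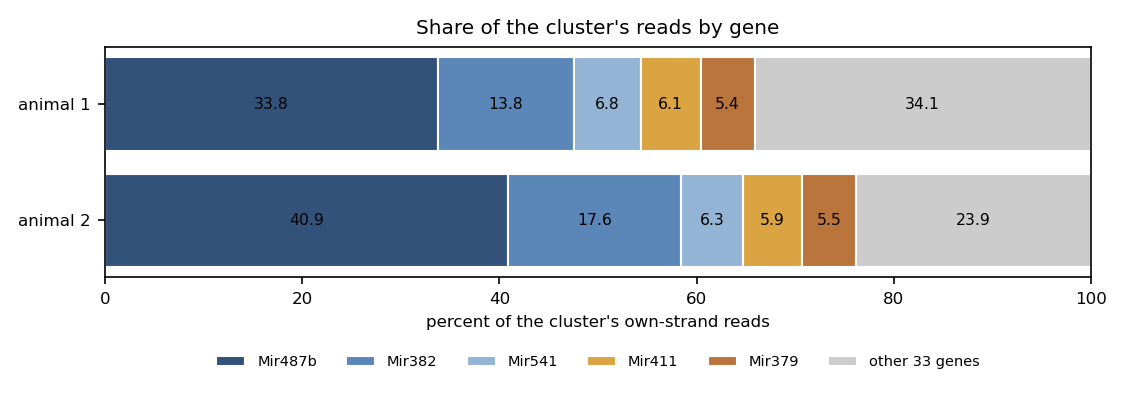
Share of the cluster's own-strand reads, in percent, held by the 5 highest members and by the other 33 genes, with 1 bar for each animal. Mir487b takes 33.8% in animal 1 and 40.9% in animal 2, and the 5 highest members together take 65.9% and 76.1%.

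Next in level were the rest of the 12 highest members. Mir409, near the end of the cluster, stood at 5449 and 4181 CPM (20739 and 10883 reads) in animals 1 and 2, and Mir323 at 4319 and 2149 CPM (16440 and 5593 reads). Mir376a, whose precursor is known to be edited from adenosine to inosine in brain, stood at 2749 and 3398 CPM (10464 and 8844 reads). Mir376a ranked below Mir323 in animal 1 and above it in animal 2. Mir369 had 2990 and 1856 CPM, Mir666 3082 and 1292 CPM, and Mir485, which represses the synaptic vesicle protein gene Sv2a, 2511 and 1786 CPM. Mir134, which acts in dendrites on the kinase gene Limk1 and limits spine size, completed the 12 highest at 1527 and 1640 CPM (5811 and 4270 reads). Mir668, Mir154, Mir667 and Mir300 followed, each between 852 and 1925 CPM in each animal, and of these only Mir300 differed little between the animals, at 1074 and 965 CPM.

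Further members known from work on neurons, chosen after their values were seen, ranked from 9 (Mir369) to 28 (Mir495) by mean level. Mir381 and Mir329, which with Mir134 take part in activity-dependent growth of dendrites, stood at 1193 and 355 CPM and at 463 and 340 CPM in animals 1 and 2. Mir495, a repressor of Bdnf, stood at 156 and 136 CPM. Mir543, Mir369 and Mir496a, which repress N-cadherin in neural precursors, stood at 561 and 281, 2990 and 1856, and 350 and 255 CPM. Mir410, which gives the cluster the end of its usual name, was low at 216 and 187 CPM.

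At the bottom of the range, apart from the members without reads, were Mir1197, Mir544 (141 and 27 reads, 37.0 and 10.4 CPM) and Mir679 (110 and 53 reads, 28.9 and 20.4 CPM). In animal 2 the exact 95% interval of Mir544, 6.84 to 15.1 CPM, includes the detection level of 10 CPM. Mir494 had 127 and 121 reads (33.4 and 46.5 CPM) and Mir758 165 and 141 (43.4 and 54.2 CPM). From the lowest to the highest detected member the mean level spanned 1590-fold. Of the 36 members with reads, 12 had the same rank in both animals and no rank differed by more than 8. Across these 36 genes, which share libraries and are not independent, Spearman's rho between the animals was 0.971 and Pearson's r of log2(CPM + 0.5) was 0.971.

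High and low members were found both before and inside the annotated Mirg gene. The annotated Mirg gene of M21 starts after Mir544, so 24 members lie before it, between annotated genes, and 14 lie inside it, 9 overlapping an exon and 5 in introns. Members inside Mirg held 38.2% and 36.4% of the cluster's reads in animals 1 and 2, with 13 of 14 detected, and those before it 61.8% and 63.6%, with 22 of 24 detected. The most abundant member, Mir487b, lies before Mirg, and Mir382 is the first hairpin inside it (109733771 to 109733846, exon). Across the 36 members with reads, which share both libraries, Spearman's rho between position and mean level was 0.165. Mir3072, the member beyond Mir410, stood at 410 and 176 CPM and has the highest GC content of the hairpins with a sequence, 72.3%, against a median of 43.4%.

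Hairpins less than 100 bases apart, of which there were 5 pairs, differed in level by 2.40-fold or more in each animal. Gaps between neighbours ran from 20 to 4368 bases with a median of 590. Mir1197 and Mir323 are 71 bases apart, and Mir323 was 783-fold higher in animal 1 and 1119-fold higher in animal 2; with 21 and 5 reads for Mir1197 these folds are imprecise. Mir666 and Mir543 are 74 bases apart, and Mir666 was 5.50-fold and 4.60-fold higher. Mir679 and Mir1193, the closest pair at 20 bases, differed least in animal 1 and in animal 2 among the 5 pairs, with Mir1193 3.26-fold and 2.40-fold higher.

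The last close group showed a dip in its middle. Mir409, Mir412 and Mir369 are separated by 52 and 49 bases, and Mir412 was lower than Mir409 by 8.49-fold and 6.28-fold and lower than Mir369 by 4.66-fold and 2.79-fold in animals 1 and 2. Mir412 itself stood at 642 and 666 CPM. Over the 33 neighbouring pairs with reads in both members, the median fold between neighbours was 8.49 in animal 1 and 6.27 in animal 2, and in 30 pairs the same member was higher in both animals.

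**Figure D2:**
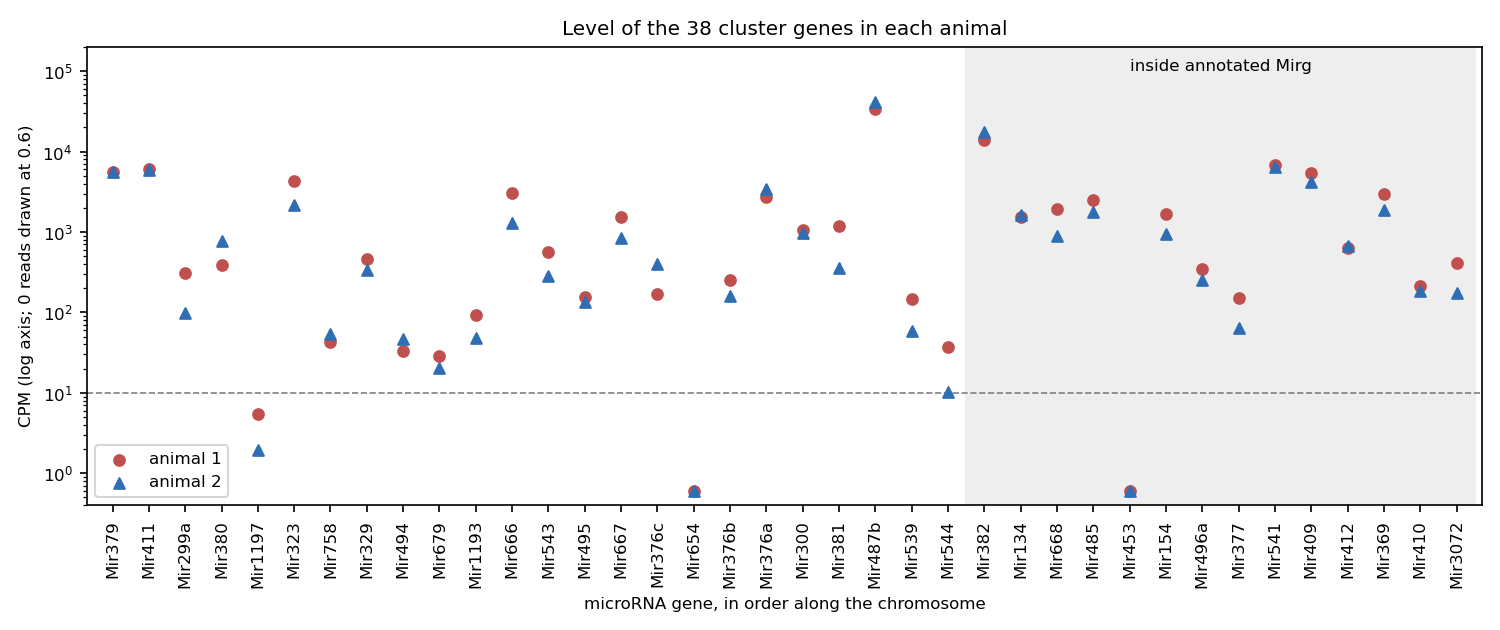
Level of each of the 38 members in CPM (log axis), in order along the chromosome, with circles for animal 1 and triangles for animal 2; the dashed line marks 10 CPM and the shaded part the members inside the annotated Mirg gene. Mir487b and Mir382 stand highest, Mir654 and Mir453 have no read, and neighbouring hairpins differ by a median of 8.49-fold in animal 1.

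Each shared seed stood on 2 members, and the levels of their hairpins were summed. The counts sum both arms of a hairpin and leave out reads that mapped to several positions, so a sum over hairpins is not the level of the microRNAs with that seed. Mir379 and Mir411 share the seed AUGUAAC on their 3′ arms and summed to 11661 and 11509 CPM in animals 1 and 2. Mir379 also shares GGUAGAC with Mir1193, which at 94.1 and 48.8 CPM added little to it. The 5′ seeds of Mir379 (GGUAGAC) and Mir411 (AGUAGAC) are not the same. Mir410 and Mir494 (GGUUGUC) summed to 249 and 234 CPM, and Mir758 and Mir1197 (GGUUGAC) to 48.9 and 56.1 CPM. For GGUUGCC only Mir496a had reads, since Mir453 had none.

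The mir-376 genes gave opposite differences. Mir376b and Mir376c, with the seed UGGAUAU on both 5′ arms, summed to 426 and 562 CPM, yet Mir376b stood at 255 CPM in animal 1 and 161 in animal 2 (971 and 419 reads) and Mir376c at 171 and 401 CPM (649 and 1044 reads). Mir376a, the most abundant of the 3, was like Mir376c higher in animal 2. Of the 65 seeds, 11 also occur in mature microRNAs of genes that are not members, among them AUGUGGG of miR-299a-3p, shared with miR-299b-3p from the opposite strand, and, from outside the cluster's bounds, ACACACC of miR-329-3p, shared with miR-362-3p, and AGGUCAC of miR-1193-3p, shared with miR-370-5p from Rian.

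Reads came from 1 strand. No member had a read on its opposite strand in either animal. Annotated microRNA genes on the minus strand overlap 5 members: Mir299b faces Mir299a, Gm25750 Mir380, Gm25252 Mir376a, Gm44322 Mir539 and Gm24321 Mir409. These 5 minus-strand genes had 0 own-strand reads in both animals. In the deposited column that ignores strand, the same 5 overlapped members, Mir299a, Mir380, Mir376a, Mir539 and Mir409, had 0 reads despite their own-strand reads. The other members had the same counts there as on their own strand, and the cluster kept 91.0% and 91.6% of its reads.

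The question that remains for a single group is how far its animals differed. Each gene was compared between the libraries with a two-sided exact binomial test on its counts, after TMM scaling, adjusted by Benjamini-Hochberg over all 531 genes with 10 or more counts. This compares 2 libraries beyond counting noise and no conditions. The test was passed by 31 of the 36 members tested, against 51.6% of all tested genes. In 19 members animal 1 had the higher level, against 26.9% of tested genes, and in 12 animal 2 had it, against 24.7%. Members had more reads than most genes, with a median of 3841 counts over both libraries against 185, so smaller differences could pass. Among genes with 100 or more counts, 31 of 35 members passed, against 77.5% of all 307 such genes. By direction these were 19 members against 40.1% (animal 1 higher) and 12 against 37.5% (animal 2 higher).

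In size the members' differences were close to those of all tested genes, without matching for depth. The median absolute log2 ratio was 0.54 over the tested members and 0.51 over all tested genes, and the common biological coefficient of variation over all tested genes was 37.99%. The median log2 ratio, animal 1 over animal 2, was 0.27 over the members and 0.04 over all genes. Passing members that differed at least 2-fold numbered 9, against 16.9% of all tested genes: 7 with animal 1 higher (13% of tested genes) and 2 with animal 2 higher (3.95%). All tested genes had a median of 185 counts, against 3841 for the members, so neither the sizes nor these shares are compared at like depth. Scaled by library totals only, animal 1 had the higher level in 23 members and animal 2 in 7. Animal 1 thus took 76.7% of the members' calls against 61.3% after TMM. Over all tested genes its share moved alike, from 52.2% to 67.5% of calls, and their median log2 ratio moved to 0.25. The shift between the scalings is 0.20 on the log2 scale, so ratios after TMM are lower than ratios of the CPM values by that amount.

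Among members with 100 or more counts, Mir544, Mir381, Mir299a and Mir539 were the highest in animal 1 relative to animal 2. Mir381 had 4539 and 923 reads, a log2 ratio of 1.55 (exact 95% interval 1.44 to 1.65), or 2.92-fold. Mir299a had 1179 and 253 reads (1.47, 1.27 to 1.67), and Mir539 566 and 152 (1.14, 0.88 to 1.41). For Mir544 the log2 ratio of 1.61 rests on 141 and 27 reads (1.03 to 2.28, adjusted p = 6.8e-09 by the exact test). Mir666 (1.05), Mir377 (1.04) and Mir3072 (1.02) also passed at 2-fold or more. Mir300, whose 3′ arm is so close to that of Mir381, had 4088 and 2512 reads and did not pass (-0.05, -0.12 to 0.02, adjusted p = 0.286 by the exact test).

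Mir376c, Mir380, Mir494 and Mir382 were the highest in animal 2 relative to animal 1. Mir376c had a log2 ratio of -1.44 (exact 95% interval -1.58 to -1.29), and Mir380, with 1474 and 2032 reads, one of -1.21 (-1.31 to -1.12). Mir494 followed at -0.68 (-1.05 to -0.31) and Mir382 at -0.56 (-0.57 to -0.54). Mir380 lies 1102 bases from Mir299a, and the intervals of their ratios lie on opposite sides of 0.

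The split by direction moved with level, over all genes as well as in the cluster. Of the 12 highest members, 7 were higher in animal 2 (Mir487b at -0.48, Mir382, Mir541, Mir411, Mir379, Mir376a at -0.51 and Mir134 at -0.31) and 5 in animal 1 (Mir409, Mir323, Mir369, Mir666 and Mir485), with a median log2 ratio of -0.13. Of all 88 tested genes with a mean level at or above that of Mir134, the lowest of the 12, 63.6% were higher in animal 2 and 27.3% in animal 1, with a median of -0.24. Among the other 24 tested members, 14 had the higher level in animal 1 and 5 in animal 2, with a median of 0.53. The 443 tested genes below that level had 26.9% higher in animal 1 and 16.9% in animal 2, with a median of 0.13. Those 443 genes were bounded only from above and include many with few reads, where few differences can pass. They are not matched in level to the 24 members. With library totals only, the split of the 12 highest turned to 4 higher in animal 2 and 7 in animal 1, and that of the 88 genes became 50% and 44.3%. For Mir541 (-0.10), Mir411 (-0.16) and Mir379 (-0.21) the direction or the call depended on the scaling: with library totals only, Mir541 and Mir411 were higher in animal 1, at 0.11 and 0.04, and Mir379 at -0.0044 did not pass. Mir410, Mir495, Mir679 and Mir1197 did not pass, with log2 ratios of 0.00 (-0.16 to 0.17), -0.01 (-0.20 to 0.18), 0.30 (-0.18 to 0.80) and 1.22 (-0.13 to 3.08).

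The animals also differed in other respects beside these ratios. The endothelial sum, all from Mir126a, was 28913 CPM in animal 1 and 8265 in animal 2, and the red blood cell sum 78.0 and 46.5. Higher in animal 2 were the sums for smooth muscle and pericytes (3145 and 4524), oligodendrocytes (1187 and 1640) and blood and microglia (1593 and 1941). The other marker sums are given above. Unmapped reads were 17.9% and 23.5% of each library. Of the 3 red blood cell markers, Mir486 was alike in both animals, at 28.9 and 28.8 CPM. The part of these marker and mapping differences in the members' differences was not tested.

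**Figure D3:**
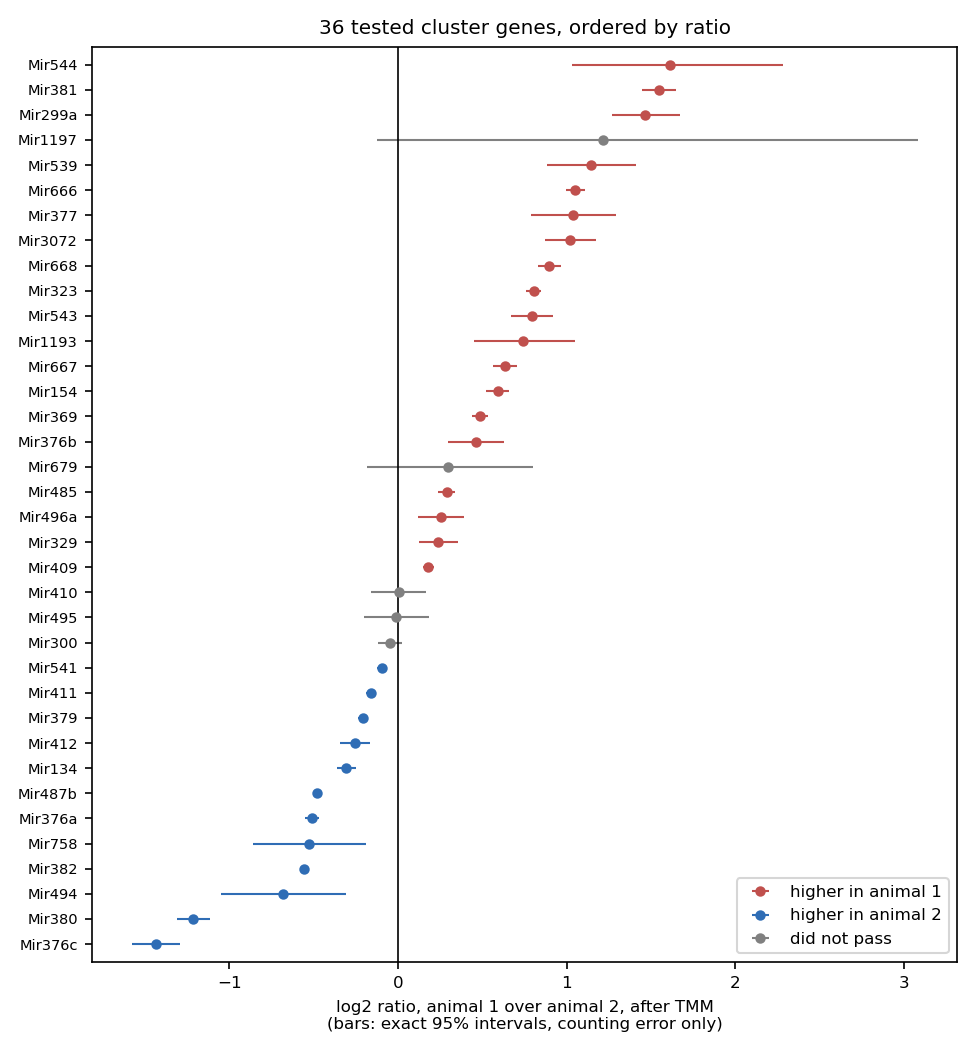
Log2 ratio of animal 1 over animal 2 after TMM for the 36 tested members, ordered by ratio, with exact 95% intervals that cover counting error only; colours mark members higher in animal 1, higher in animal 2 and not passing. Ratios run from -1.44 for Mir376c to 1.61 for Mir544, with 19 members passing as higher in animal 1 and 12 in animal 2.

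**Figure D4:**
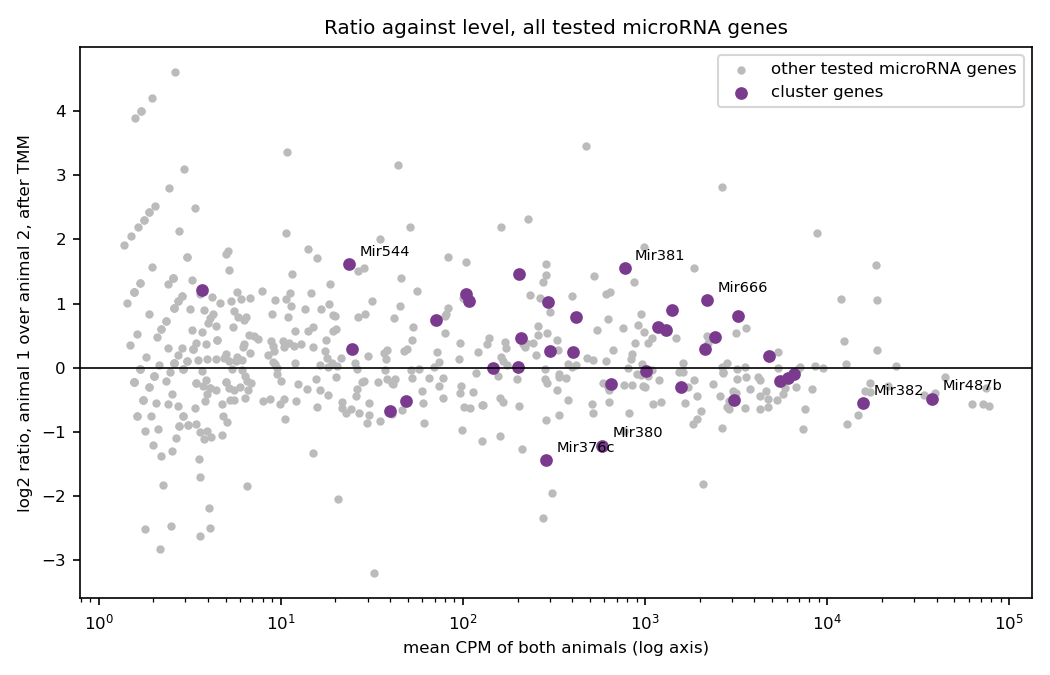
Log2 ratio of animal 1 over animal 2 after TMM against the mean CPM of both animals (log axis) for all 531 tested microRNA genes, with the cluster's members in purple. The members lie within the spread of the other genes, and Mir487b and Mir382, the 2 highest, lie below 0.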

How the data were processed

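MicroRNA libraries of 2 animals were analysed. Each deposited table lists read counts, in whole numbers, per hairpin gene in 3 columns (both strands, own strand, opposite strand), with both arms summed. The build was mm10 and the annotation M21, per the notes deposited beside the tables; the aligner and counter: not given in the sources used here. The 4 rows of no gene were left out of library sizes: unmapped reads made up 17.9% and 23.5% of a library, multiply mapped reads 42.7% and 40.4%, reads outside listed genes 5.79% and 5.62%, and the last row holds ambiguous reads.

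CPM was own-strand counts over all counted reads. TMM factors (1.07 and 0.932) and the coefficient of variation came from edgeR 4.0.16 in R 4.3.3, and tests from scipy 1.17.1. For log2 ratios 0.5 was added to each count. The test was checked only on simulated counts with counting noise alone and known library sizes. That check leaves out the spread between animals and the TMM scaling. A count of 0 allows up to 3 counts. Without molecular identifiers, intervals and floors measure counting error alone. P-values measure only how far these libraries differ beyond counting error, not the spread between animals. Alternatives were library totals, DESeq2 1.42.0 size factors, other minimum counts and detection levels, the both-strand column and leaving out each animal. Values are given for the 12 highest and 5 lowest members, the 4 highest and 4 lowest ratios among passing members with 100 or more counts, seed groups and, named after their values were seen, members with known neuronal roles, other members of 2-fold difference and the middle of the range. The rule for members uses no measured value, but the cluster, the lists and the tests were chosen with earlier results of these data known. The comparison with all tested genes above and below the level of Mir134 was added later.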

Additional observations from a re-analysis of the deposited data

How the results depend on the processing

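With library totals only, members higher in animal 2 fell from 12 to 7 and the median log2 ratio of the members rose from 0.27 to 0.48. The ratios of Mir411 (0.040), Mir541 (0.11), Mir300 (0.15) and Mir495 (0.19) changed sign under that scaling. Mir495 also changed sign in the both-strand column (0.0040) and Mir410 with DESeq2 size factors (-0.047). Some calls changed without a change of sign. Mir410 (0.21) passed with library totals only, and Mir300 (-0.0996) passed with DESeq2 size factors. Like Mir379, Mir758 (-0.32) and Mir412 (-0.053) did not pass with library totals only. The cluster's share of counted reads was 9.93% in the both-strand column, where the 5 members overlapped by minus-strand genes have no read. It was 3.23% of all reads of the library, and 6.33% without Mir487b, a setting chosen after the data were seen. In the both-strand column the cluster held 43.8% of the region's reads. Leaving out each animal gave 10.10 to 10.11% for the share of counted reads, 45.2 to 45.8% for the share of the region, 65.9 to 76.1% for the 5 highest members and 35 detected members either way. Detection gave 36 members at 1 CPM, 27 at 100 CPM and 30 in the both-strand column. The counts of calls with DESeq2 size factors (19 and 13), without a filter (19 and 12), at 100 counts (19 and 12) and in the both-strand column (16 and 10) stayed within 1.5 times of 19 and 12. Over all tested genes the counts were 143 and 131 with TMM, 189 and 91 with library totals, 128 and 146 with DESeq2 size factors, 145 and 120 without a filter, 123 and 115 at 100 counts and 131 and 118 in the both-strand column, so DESeq2 size factors turned the balance over all genes but not over the members. The leave-one-out settings have no test between libraries. No paired analysis was possible because there is 1 group. Depth limits Mir1197, Mir544, Mir679, Mir494 and Mir758, which rest on the fewest reads.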

Other observations

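Inside the cluster's bounds 1 further plus-strand microRNA gene without a Mir symbol, Gm27379, had 5 reads in animal 1 and 3 in animal 2, which is at or just above the limit that a count of 0 allows.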
